A study of Mus musculus with 16 samples.

Results

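The Myc, Max and Mxd network is a family of 9 mouse genes for transcription factors that pair with one another and bind the same short DNA sequence. The 9 members are Myc, Mycn, Max, Mxi1, Mxd1, Mxd3, Mxd4, Mnt and Mga, and they were taken by gene symbol from the 19938 genes that the arrays measured. Where a gene has several probe sets, the one with the highest mean level over all 16 arrays is chosen by that measured value; each of the 9 had exactly 1 probe set, so no level selected any of them, and all 9 are described here. RNA of whole kidney tissue was measured on 16 arrays, 1 per labelled biological replicate, and every level is an RMA value on the log2 scale, so that a difference of 1 is a 2-fold difference.

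All mice came from a transgenic line in which doxycycline induces deletion of Vhl in renal tubule cells, with Pax8-rtTA as the driver, although the genotype label of mice without doxycycline reads wt. VHL-KO/AKI mice (n = 5) were injected under the skin with doxycycline (0.1 mg for every 10 g), 4 days before the kidneys were taken, and with 50% glycerol into muscle (0.05 ml for every 10 g). AKI mice (n = 5) had the glycerol alone, which breaks down muscle and injures the kidney (rhabdomyolysis, acute kidney injury). Water was withheld from the glycerol groups from 20 h before the injection to 24 h after it. VHL-KO mice (n = 3) had the doxycycline alone, and Control mice (n = 3) were untreated. The labels give both sexes, no age and no sex per animal, and they describe no group with doxycycline but intact Vhl and none with water withheld but no glycerol. Neither agent can therefore be told apart from the deletion or the injury. Vhl protein sends the hypoxia-inducible factors (HIF) to breakdown, and non-tubular kidney cells retain it in all 4 groups.

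Myc and Mycn are activators. Each pairs with Max, and the pair binds the E box, written CACGTG, and raises genes for ribosome making, nucleotide synthesis and cell growth. The Mxd proteins, Mxi1 (also called Mxd2), Mnt and Mga pair with the same Max and bind the same sites, where Mxd proteins, Mxi1 and Mnt recruit the Sin3 corepressor and its histone deacetylases. Myc is low in resting tubule cells and is a growth gene of the immediate early type, and MXI1 is known in human cells as a gene that HIF induces.

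Promoter windows were available from RefSeq (GRCm38.p6, 250 bases before to 50 after an annotated start) for 8 of the 9 members, all but Myc. There were 10 windows in all, of which 3 belong to Mxi1. They are shown for Mxi1, whose level was higher with the deletion in injured kidneys, and for the members whose windows hold the site that the network itself binds. The letters searched were CACGTG (the E box) and ACGTG or GCGTG on either strand (the core that HIF recognises). CACGTG contains ACGTG on both strands, so each E box is also counted as a core. The window of Mxi1 before one of its starts, chr19:53329163-53329412 on the plus strand, reads as follows, with the core ACGTG, at position -66 relative to the start, in capitals.
Mxi1: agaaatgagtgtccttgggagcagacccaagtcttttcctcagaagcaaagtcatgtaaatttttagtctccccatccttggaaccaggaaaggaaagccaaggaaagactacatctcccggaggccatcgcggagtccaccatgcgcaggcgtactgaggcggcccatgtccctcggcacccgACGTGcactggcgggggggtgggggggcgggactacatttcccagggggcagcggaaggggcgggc

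Stretches of 30 bases around the E box follow for Max (chr12:76962234-76962263, minus strand), Mxd4 (chr5:34187912-34187941, minus strand) and Mnt (chr11:74830789-74830818, plus strand), with CACGTG in capitals. It begins at position -3 in Max, -219 in Mxd4 and -123 in Mnt, relative to the start.
Max: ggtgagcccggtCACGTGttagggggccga
Mxd4: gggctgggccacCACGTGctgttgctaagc
Mnt: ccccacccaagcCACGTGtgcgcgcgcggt

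The E box stood in 3 of the 10 windows (30%), those of Max, Mxd4 and Mnt, and in 7.15% of all 32851 windows of this length. The HIF core stood in 7 of the 10 windows (70%), 2 of the 3 Mxi1 windows among them, and in 43.8% of all windows. Max, Mxd4 and Mnt, which carry the E box, were called in none of the comparisons, with 0 calls by limma over 5 comparisons each. Over all genes 0.527% were called in VHL-KO against Control and 28.1% in AKI against Control. The share was 3.88% in VHL-KO/AKI against AKI, 13.6% in VHL-KO/AKI against VHL-KO and 0.01% in the interaction. Myc had no window, so its promoter was not searched for either motif. A match of letters is a description of the window and not a site of binding.

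Some facts of the whole series touch the results. Vhl, the deleted gene, lay between 6.35 and 6.66 in VHL-KO/AKI, between 7.01 and 7.36 in AKI, between 6.62 and 6.70 in VHL-KO and between 7.03 and 7.10 in Control. The 10 proximal tubule markers averaged 10.87 to 11.56 in VHL-KO/AKI, 10.53 to 11.95 in AKI, 11.94 to 12.13 in VHL-KO and 12.34 to 12.40 in Control, so the labelled tissue showed its defining markers on every array. The array AKI 4 stood apart: it correlated with its group at 0.973 on average, and the remaining 4 at 0.988 or 0.989. Transcripts of the sex chromosomes divided the arrays along the same line as injury. Xist, made by female cells, lay between 4.16 and 5.08 on the injured arrays and between 10.23 and 11.47 on the uninjured ones, and the Y-linked mean lay between 7.77 and 8.26 on the injured arrays and between 4.81 and 5.01 on the uninjured ones other than Control 3. Control 3 held both signals (Xist 10.23, Y-linked mean 7.43). Apart from Control 3, injury and sex-linked signal cannot be told apart in a comparison of injured with uninjured kidneys, and values without Control 3 or AKI 4 are given where they change a result.

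Among the members Myc had the widest range. It was measured at 9.32, 9.37, 9.21, 9.48 and 9.72 in VHL-KO/AKI, at 9.73, 10.20, 9.66, 9.65 and 10.07 in AKI, at 8.36, 7.66 and 8.73 in VHL-KO, and at 6.94, 6.59 and 6.49 in Control. Every treated array lay above every Control array, and every injured array above every uninjured one. Across all 16 arrays Myc spanned 3.72, and the other 8 members spanned between 0.30 (Mycn) and 1.18 (Mxi1).

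**Figure D1:**
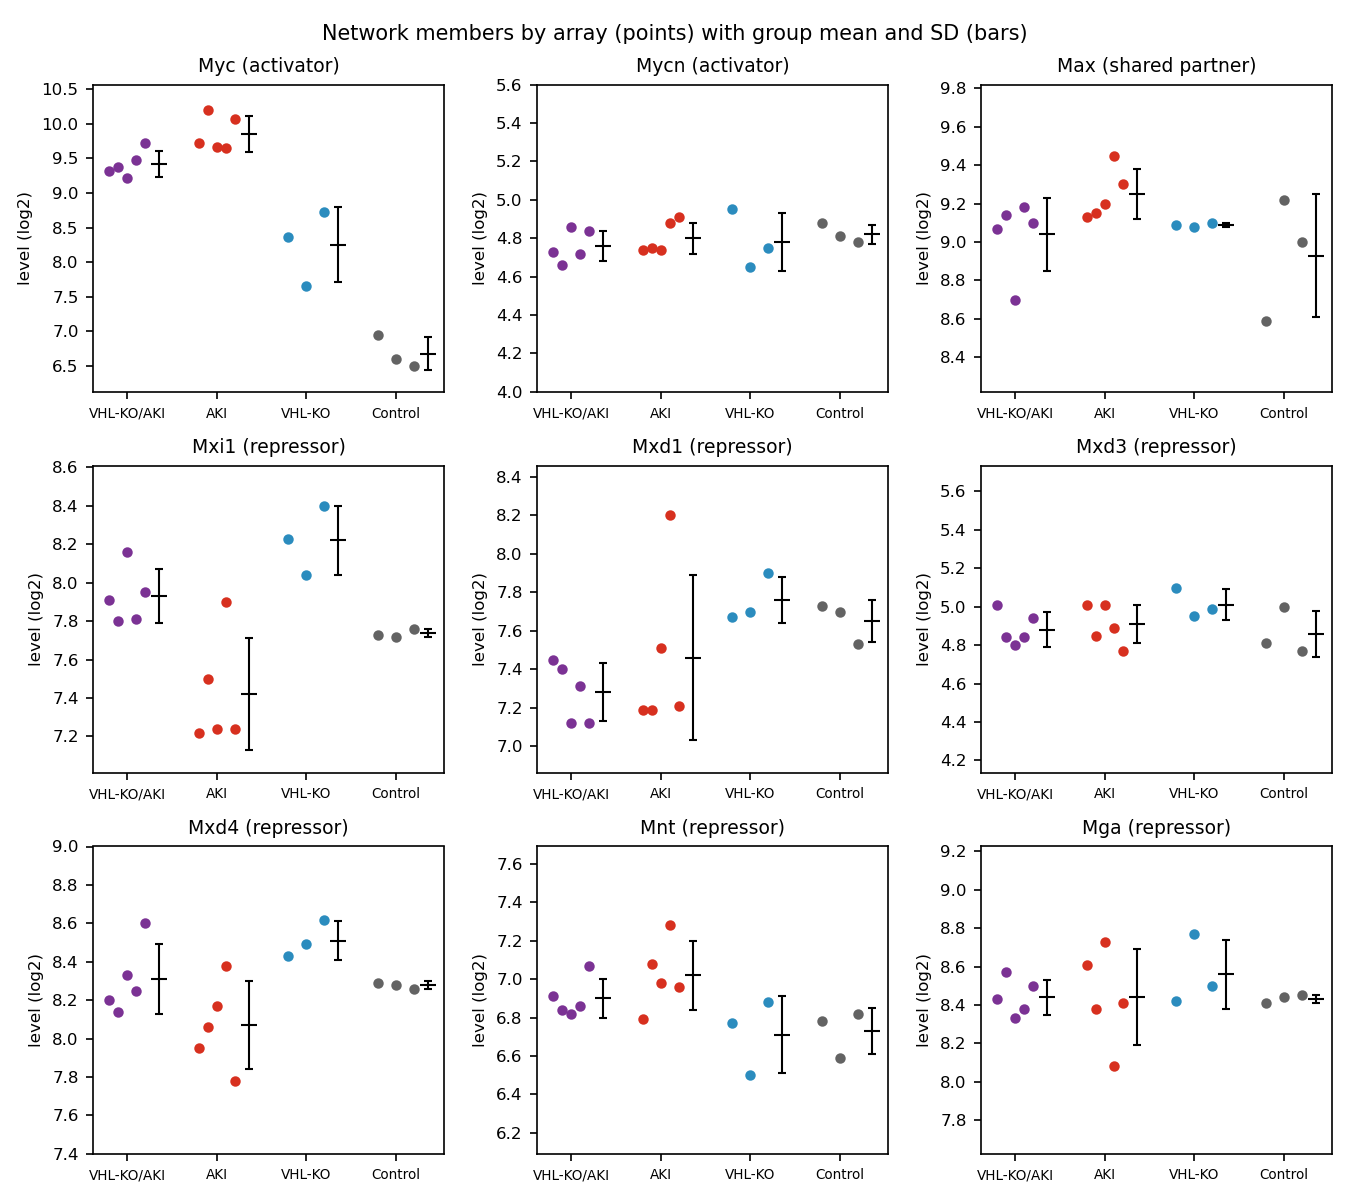
Level of each network member (log2, vertical axis) on each of the 16 arrays by group, with the group mean and SD as a black bar beside the points; each panel has its own axis range. Myc runs between 6.49 and 10.20 with Control lowest and AKI highest, whereas Mycn stays between 4.65 and 4.95 and Mxd3 between 4.77 and 5.10.

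VHL-KO against Control asked what deletion of Vhl changes in an uninjured kidney. Myc averaged 8.25 ± 0.54 in VHL-KO and 6.67 ± 0.24 in Control (SD, n = 3 each). It rose by 1.58 on the log2 scale, or 2.98-fold (SE 0.229, limma adjusted p = 0.00467). Of the 9 members 1 rose, 0 fell and 8 did not pass, where 0.476% of all genes tested passed as higher, 0.0502% as lower and 0.527% in either direction. Only 0.14% of all genes had a larger absolute change than Myc. The call for Myc held with any 1 array left out (adjusted p between 0.00057 and 0.038). In a fit that also held each array's sex-linked level, the change was 1.45 and the adjusted p was 0.0832. That level, Xist minus the Y-linked mean, was 2.80 on Control 3 and 5.99 to 6.66 on the other arrays of these groups.

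Mxi1 was the next member by size in uninjured kidneys. It was measured at 8.23, 8.04 and 8.40 in VHL-KO, against 7.73, 7.72 and 7.76 in Control, without overlap. The difference of 0.49 (SE 0.155, 95% interval 0.16 to 0.82) did not pass over all genes (adjusted p = 0.284), and it passed once AKI 4 was removed from the estimate of spread common to the 4 groups (adjusted p = 0.0425). Mxd4 was measured at 8.43, 8.49 and 8.62 in VHL-KO, against 8.29, 8.28 and 8.26 in Control. It too had no overlap, and its difference of 0.24 (SE 0.134) did not pass (adjusted p = 0.696). Myc, Mxi1 and Mxd4 were the 3 members of 9 whose groups did not overlap, as was the case for 17.2% of all genes.

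The other members differed by little. Max, the shared partner, stood between 9.08 and 9.10 in VHL-KO and between 8.59 and 9.22 in Control (difference 0.16, 95% interval -0.15 to 0.46). Mxd1 differed by 0.11, Mxd3 by 0.15, Mga by 0.13, Mnt by -0.02 and Mycn by -0.04, with adjusted p-values between 0.693 and 0.989. The limits of these intervals leave room for changes of up to 0.55 on the log2 scale, which is the upper limit for Mxd1. Markers of endothelial cells stood beside these values: 8 of 8 were measured, their mean level lay between 9.81 and 10.01 in VHL-KO and between 9.34 and 9.47 in Control, and limma called 0 of them (6 at an unadjusted p under 0.05). The 3 erythroid genes had a mean level between 7.94 and 8.13 in VHL-KO and between 6.91 and 7.13 in Control, and 1 of them, Alas2, rose by 2.11 (adjusted p = 0.00176). Over all genes 0.527% were called, and 1664 of 19938 had an unadjusted p under 0.05. Of the 3 erythroid genes, Slc4a1 is also listed among the collecting duct markers. The part of endothelial and erythroid cells in the results was not tested. In whole tissue, a change in the number of cells of a type and a change in RNA per cell cannot be told apart.

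AKI against Control asked what glycerol injury changes with Vhl intact. Myc averaged 9.86 ± 0.26 in AKI (SD, n = 5) and 6.67 ± 0.24 in Control (n = 3). It rose by 3.19, or 9.14-fold (SE 0.204, limma adjusted p = 4.32e-07). Again 1 of 9 members rose, 0 fell and 8 did not pass. Here 13.2% of all genes rose, 14.9% fell and 28.1% passed in either direction, so the count of members (11.1%) was not above the background, and 0.186% of all genes changed more than Myc. The groups of 1 member, Myc, did not overlap, against 27.3% of all genes. When the fit also held the sex-linked level, the estimate for Myc was 3.88 with a SE of 0.884 (adjusted p = 0.672). In the same comparison limma then called 0 genes of 19938 (712 at an unadjusted p under 0.05). Apart from Control 3, the sex-linked level divided these arrays as injury did, so this fit cannot tell that level from injury.

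Several partners and opponents came close to the threshold in AKI. Mnt, the most widely expressed of the repressors as background knowledge has it, averaged 7.02 ± 0.18 in AKI and 6.73 ± 0.12 in Control (difference 0.29, SE 0.107, adjusted p = 0.0565). Max averaged 9.25 ± 0.13 in AKI and 8.93 ± 0.32 in Control (difference 0.31, SE 0.129, adjusted p = 0.0854). With each of the 16 arrays left out in turn, Mnt passed in 2 fits, without VHL-KO 2 or AKI 1 (adjusted p = 0.04 and 0.0241). Max passed in 1 of the 16, without Control 2 (adjusted p = 0.0239).

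Mxi1 and Mxd1 were lower on 4 of the 5 AKI arrays than in Control, and AKI 4 lay apart from the rest. Mxi1 was measured at 7.22, 7.50, 7.24, 7.90 and 7.24 in AKI, against 7.73, 7.72 and 7.76 in Control (difference -0.32, SE 0.138, adjusted p = 0.105). Mxd1, a repressor that accompanies cell differentiation, was measured at 7.19, 7.19, 7.51, 8.20 and 7.21 in AKI, against 7.73, 7.70 and 7.53 in Control (difference -0.19, SE 0.185, adjusted p = 0.492). AKI 4, the fourth value in each AKI series, was above every Control array for both genes. Without it, Mxi1 fell by 0.44 (adjusted p = 0.00323) and Mxd1 by 0.38 (adjusted p = 0.0112). AKI 4 also held the highest proximal tubule mean of its group, 11.95 against 10.53 to 11.13 on the other 4 arrays, the highest thick limb and distal tubule mean, 10.31 against 8.78 to 9.03, and the highest neutrophil mean, 6.34 against 5.24 to 6.02. Its mean over 20 HIF target genes was 9.23, against 8.49 to 8.71 on the other AKI arrays and beside 9.43 to 9.59 in VHL-KO/AKI. Its mean over 13 tubular injury genes was 8.72, against 9.98 to 10.29 on the other AKI arrays. The part of these cells and genes in the results was not tested.

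Mxd4, Mycn, Mxd3 and Mga did not pass in AKI. Mxd4, a repressor of resting and differentiated cells, averaged 8.07 ± 0.23 in AKI and 8.28 ± 0.02 in Control (difference -0.21, adjusted p = 0.225). Mycn, the activator of the embryonic kidney and nervous system, averaged 4.80 ± 0.08 in AKI and 4.82 ± 0.05 in Control. Mycn and Mxd3 had low levels in every group, at the 25.9th and 29.4th percentile of mean level among all genes, where the arrays cannot show whether a transcript is present. Mga, the largest protein of the family, averaged 8.44 ± 0.25 in AKI and 8.43 ± 0.02 in Control. The differences were -0.02 for Mycn, 0.05 for Mxd3 and 0.01 for Mga, with adjusted p-values between 0.697 and 0.972.

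VHL-KO/AKI against AKI asked what the deletion changes once the kidney is injured, among arrays that share the same sex-linked signal. Mxi1 was measured at 7.91, 7.80, 8.16, 7.81 and 7.95 in VHL-KO/AKI, against 7.22, 7.50, 7.24, 7.90 and 7.24 in AKI. The ranges met only through AKI 4. Mxi1 averaged 7.93 ± 0.14 in VHL-KO/AKI and 7.42 ± 0.29 in AKI (SD, n = 5 each), and it rose by 0.51, or 1.42-fold (SE 0.12, limma adjusted p = 0.032). It was the only 1 of 9 members to pass (0 fell), where 2.48% of all genes passed as higher, 1.4% as lower and 3.88% in either direction.

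The size of the Mxi1 rise was steady and its call was not. The change lay between 0.45 and 0.63 with any 1 array left out. It was 0.63 without AKI 4 (adjusted p = 0.000797), and it lost the call without AKI 1, 3 or 5, without VHL-KO/AKI 1, 2 or 3, and in a fit of these 2 groups alone (adjusted p between 0.0581 and 0.0994). The difference that the deletion made to Mxi1 in uninjured kidneys, 0.49, was of much the same size, and the interaction, the first difference minus the second, was 0.02 (95% interval -0.40 to 0.44).

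Myc averaged lower in VHL-KO/AKI than in AKI, without passing; with array weights the difference was -0.50 and passed (adjusted p = 0.0434). It averaged 9.42 ± 0.19 in VHL-KO/AKI and 9.86 ± 0.26 in AKI (difference -0.44, SE 0.177, 95% interval -0.82 to -0.06, adjusted p = 0.188), and 1 VHL-KO/AKI array (9.72) lay above 2 AKI arrays (9.65 and 9.66). Mxd4 averaged 8.31 ± 0.18 in VHL-KO/AKI and 8.07 ± 0.23 in AKI (difference 0.24, SE 0.104, adjusted p = 0.231), and it passed without AKI 4 (0.32, adjusted p = 0.0412). The groups of 0 of 9 members had no overlap, against 3.78% of all genes. Max (-0.21), Mxd1 (-0.18), Mnt (-0.12), Mycn (-0.04), Mxd3 (-0.02) and Mga (0.00) had adjusted p-values between 0.339 and 0.995.

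VHL-KO/AKI against VHL-KO asked what injury changes in kidneys that had already lost Vhl. Myc averaged 9.42 ± 0.19 in VHL-KO/AKI (SD, n = 5) and 8.25 ± 0.54 in VHL-KO (n = 3). It rose by 1.17, or 2.25-fold (SE 0.204, limma adjusted p = 0.0018), as the only 1 of 9 members to pass (0 fell), where 4.66% of all genes passed as higher, 8.91% as lower and 13.6% in either direction. When the fit also held the sex-linked level, the estimate was 1.98 with a SE of 1.04, and it did not pass (adjusted p = 1). Between VHL-KO/AKI and VHL-KO the sex-linked level divided the arrays as injury did, so this fit cannot tell that level from injury. Mxd1 was measured at 7.45, 7.40, 7.12, 7.31 and 7.12 in VHL-KO/AKI, against 7.67, 7.70 and 7.90 in VHL-KO. These groups did not overlap, as for Myc and for 24.3% of all genes, and the difference of -0.48 (SE 0.185) missed the threshold (adjusted p = 0.102). It passed without AKI 4 (adjusted p = 0.00351) and in a fit of the compared groups alone (adjusted p = 0.0106). Mxi1 differed by -0.30 (SE 0.138, adjusted p = 0.183), and it passed without AKI 4 (adjusted p = 0.0429). The other members did not pass: Mxd4 differed by -0.21, Mnt by 0.19, Mxd3 by -0.13, Mga by -0.12, Max by -0.05 and Mycn by -0.02, with adjusted p-values between 0.285 and 0.888.

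**Figure D2:**
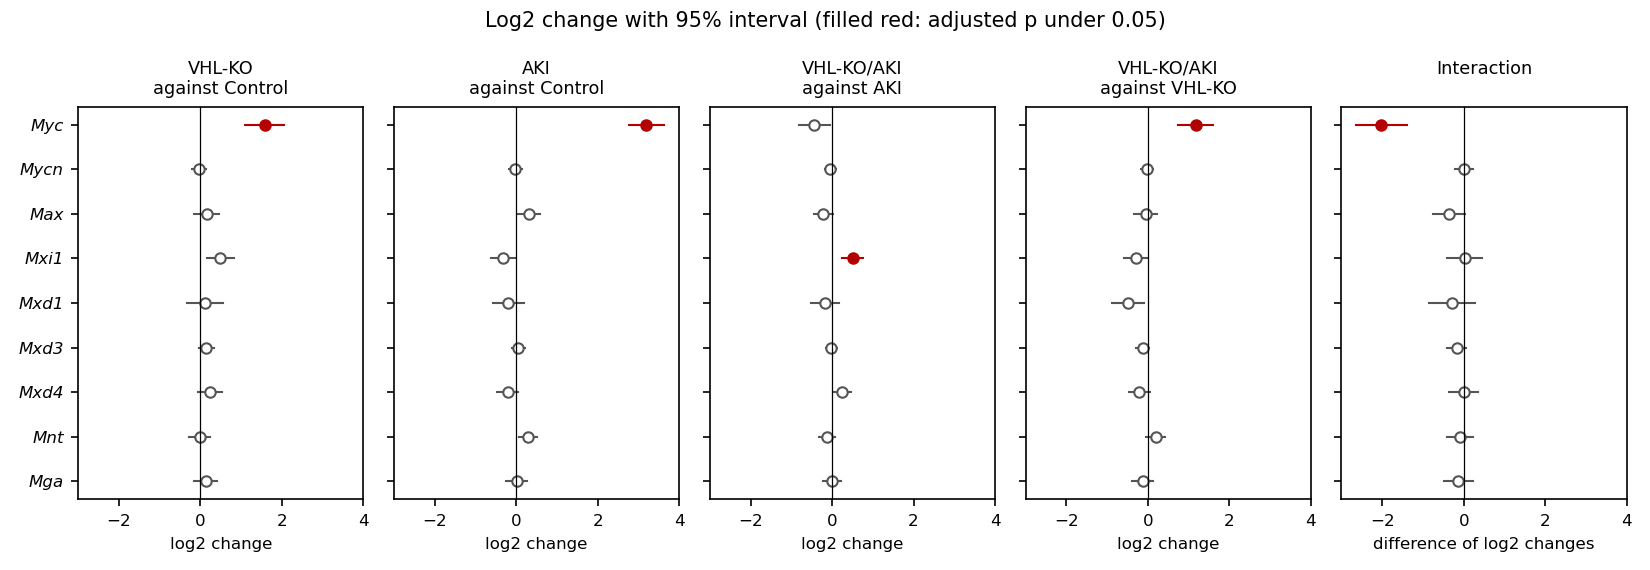
Log2 change of each member (point) with its 95% interval (line) in the 4 comparisons, and the interaction in the last panel; filled red points passed at an adjusted p under 0.05. Myc is called in 3 comparisons and in the interaction (1.58, 3.19, 1.17 and -2.02), Mxi1 in VHL-KO/AKI against AKI (0.51), and the other points are open.

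The interaction sets the deletion difference in injured kidneys (VHL-KO/AKI minus AKI) against that in uninjured kidneys (VHL-KO minus Control). For Myc these were -0.44 and 1.58, which gave an interaction of -2.02 (SE 0.289, 95% interval -2.64 to -1.40, limma adjusted p = 0.0466, unadjusted p = 4.68e-06). Over all genes limma called 2, or 0.01%, both as lower. The other was Hmox1, which degrades haem and was named here after its values were seen, with -3.29 (adjusted p = 0.0466). Hmox1 averaged 10.99 ± 0.66 in VHL-KO/AKI, 12.17 ± 0.45 in AKI, 9.67 ± 0.27 in VHL-KO and 7.56 ± 0.25 in Control, the same order of groups as for Myc.

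The Myc interaction kept its direction under each of 25 alternative settings, with values between -2.31 and -1.78, and its call did not hold under 17 of them. Left out 1 at a time, 4 of the 16 arrays kept the call (VHL-KO 2, AKI 2, AKI 4 and VHL-KO/AKI 5), and the adjusted p ranged up to 0.183, the value without Control 3. It was 0.0862 after centring each array on its median, 0.0746 after quantile scaling, 0.0624 after cyclic loess scaling and 0.174 when the sex-linked level was added (interaction -1.89). The other 8 members did not pass: the interaction was -0.37 for Max, -0.29 for Mxd1, -0.17 for Mxd3, -0.13 for Mga, -0.10 for Mnt, -0.00 for Mycn and Mxd4 and 0.02 for Mxi1, with adjusted p-values of 0.445 or more.

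**Figure D3:**
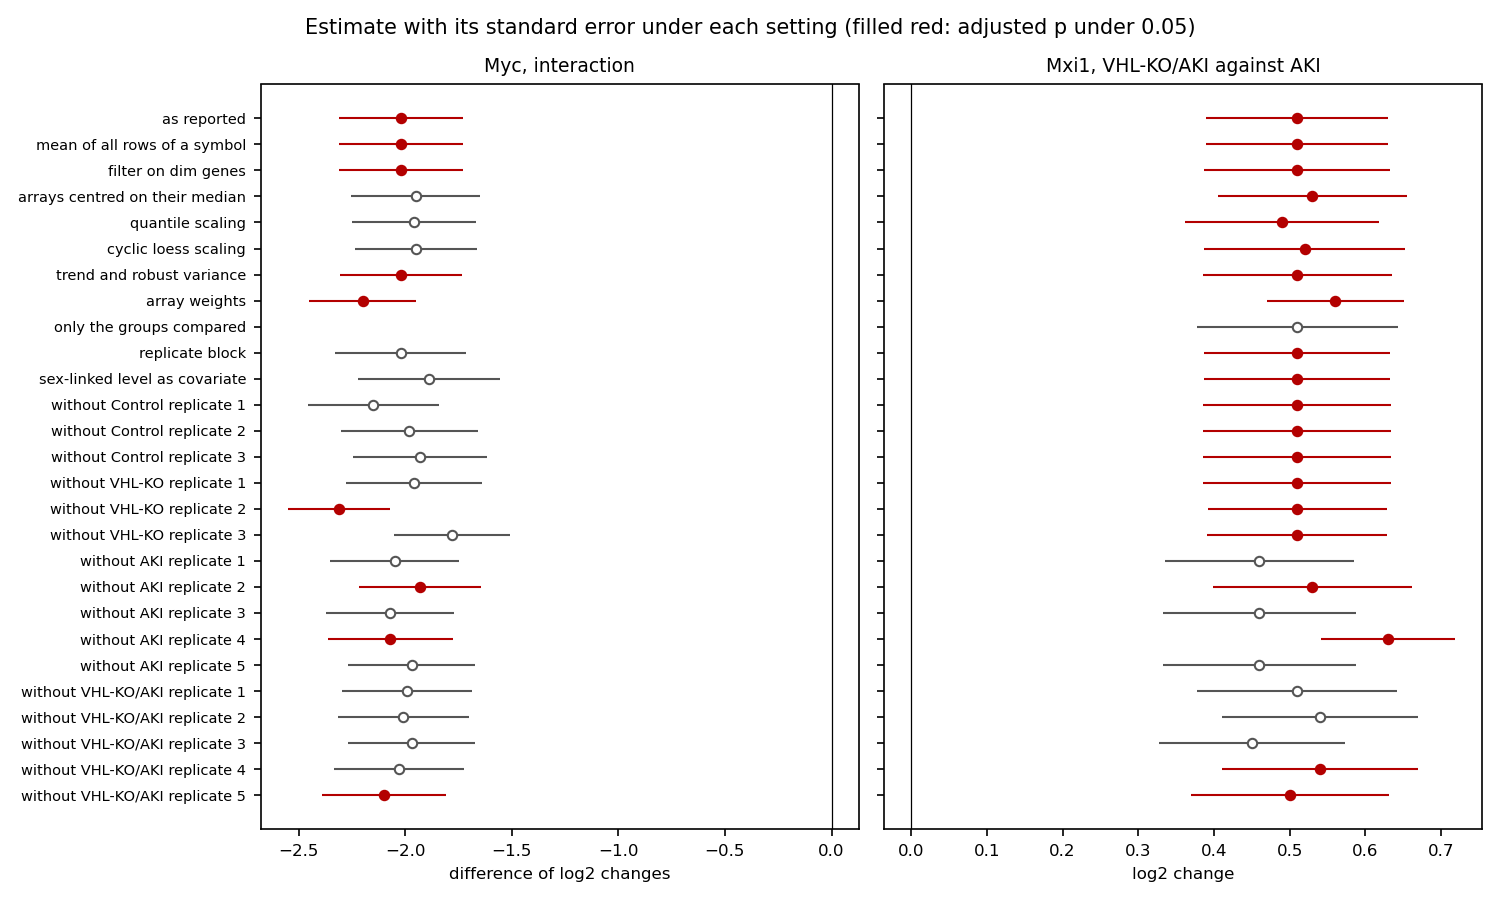
Left, the Myc interaction, and right, the Mxi1 change in VHL-KO/AKI against AKI, each with its standard error under the setting named at the left; filled red points passed at an adjusted p under 0.05. The Myc values stay between -2.31 and -1.78 and the Mxi1 values between 0.45 and 0.63, while the calls come and go.

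The order of groups was thus AKI, VHL-KO/AKI, VHL-KO and Control for Myc, where the first pair overlapped and did not pass. For Mxi1 it was VHL-KO, VHL-KO/AKI, Control and AKI, where the first pair and the last pair overlapped and did not pass. The middle pair, VHL-KO/AKI (7.93 ± 0.14) and Control (7.74 ± 0.02), did not overlap and was not tested. Mxd4 had the same order as Mxi1 (8.51 ± 0.10 in VHL-KO, 8.31 ± 0.18 in VHL-KO/AKI, 8.28 ± 0.02 in Control and 8.07 ± 0.23 in AKI). Likeness of pattern was measured as the root mean square difference over the 16 arrays after each gene was set to its own mean. For Myc, whose SD over the arrays was 1.24, the nearest genes were Tubb6, a tubulin (0.413), Pvr, a cell adhesion receptor (0.467), and Slc25a24, a mitochondrial carrier (0.524). Tubb6 averaged 8.83 in VHL-KO/AKI, 9.33 in AKI, 7.18 in VHL-KO and 6.36 in Control. For Mxi1, whose SD was 0.35, they were Hadhb, an enzyme of fatty acid oxidation (0.119), Nadk2, a mitochondrial NAD kinase (0.122), and Dram2 (0.128). Hadhb averaged 10.86 in VHL-KO/AKI, 10.36 in AKI, 11.06 in VHL-KO and 10.82 in Control. The 16 arrays share their groups and the sex-linked split, so these are descriptions only.

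Genes that Myc is known to raise were read from lists of the network's targets. Among the 25 genes of nucleolus and ribosome making on the arrays, 15 rose in AKI against Control, 0 fell and 10 stayed short of the threshold, where 13.2% of all genes rose. The list median was 0.55, against 0.02 over all genes. Gnl3, which encodes nucleostemin, averaged 9.04 ± 0.36 in AKI and 7.44 ± 0.23 in Control and rose by 1.61 (adjusted p = 0.000144). The RNA helicase gene Ddx21 rose by 1.42, Nop58, a core protein of small nucleolar particles, by 1.40, and Wdr43 by 0.92. With injury and deletion compared to deletion alone (VHL-KO/AKI against VHL-KO), 3 of the 25 rose (Gnl3 by 0.91, Ddx21 by 0.63 and Rrp12 by 0.51) and 0 fell, where 4.66% of all genes rose, with a median of 0.27 against -0.01 over all genes.

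In VHL-KO against Control limma called 0 of these 25 genes (2 at an unadjusted p under 0.05), where 0.527% of all genes were called, with a median of 0.20 against 0.02 over all genes and 21 of 25 values above 0. The smallest p was that of Wdr43 (difference 0.36, adjusted p = 0.44). A shift of this kind was not particular to Myc targets in that comparison. Of 12 corepressors of Mxd proteins and partners of Mga, 11 values lay above 0 (median 0.20), as did 11 of 11 for cofactors of Myc (median 0.13). Of 12 other bHLH zipper factors, 4 lay above 0 (median -0.05). For the genes of nucleolus and ribosome making in VHL-KO/AKI against AKI, 22 of 25 values lay below 0, with a median of -0.17 against -0.01 over all genes. Of these 25 genes 1 passed, Nop58, which fell by 0.57 (adjusted p = 0.0468), where 3.88% of all genes were called. Nop58 averaged 7.58 ± 0.32 in VHL-KO/AKI, 8.16 ± 0.30 in AKI, 7.07 ± 0.05 in VHL-KO and 6.76 ± 0.05 in Control, again in the order seen for Myc. The mean level of the list lay between 7.88 and 8.34 in VHL-KO/AKI, 7.85 and 8.56 in AKI, 7.83 and 7.94 in VHL-KO, and 7.68 and 7.80 in Control. The lowest AKI value, 7.85, was that of AKI 4, and the other 4 AKI arrays lay at 8.32 or above.

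Of the 24 Myc targets of growth and metabolism on the arrays, 8 rose, 4 fell and 12 stayed short of the threshold in AKI against Control (median 0.21), where 13.2% of all genes rose and 14.9% fell. Mthfd2, a mitochondrial folate enzyme, rose by 1.51, the amino acid carrier Slc7a5 by 1.29 and the translation factor Eif4a1 by 0.96, whereas Shmt1, a folate enzyme of the cytosol, fell by 1.58. In VHL-KO/AKI against VHL-KO 7 rose and 3 fell (median 0.14), where 4.66% of all genes rose and 8.91% fell, among them the transferrin receptor Tfrc by 1.04, the spermidine synthase gene Srm by 0.91 and Mthfd2 by 0.78, and the cyclin Ccnd1, which fell by 1.09. In VHL-KO against Control 1 of 24 rose, the lactate dehydrogenase gene Ldha, by 0.76 (adjusted p = 0.0139), where 0.476% of all genes rose. With injury and deletion compared to injury alone (VHL-KO/AKI against AKI), 3 rose and 1 fell, where 2.48% of all genes rose and 1.4% fell, with Shmt2, the mitochondrial counterpart of Shmt1, up by 1.20, Tfrc up by 1.02, Ldha up by 0.79 and the carrier subunit Slc3a2 down (-0.45). Ldha is also a HIF target.

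Of 11 genes that Myc is known to lower, 3 rose and 4 fell in AKI against Control (median -0.24), where 13.2% of all genes rose and 14.9% fell. The growth arrest gene Gadd45a rose by 2.07, the matrix gene Thbs1 by 1.00 and the transcription factor Klf4 by 0.89, and Ndrg2 fell by 0.61. For VHL-KO/AKI against AKI, Gadd45a fell by 1.59 (adjusted p = 0.0198) and Ndrg2 rose by 0.70 (adjusted p = 0.0314), with the other 9 not passing, where 3.88% of all genes were called. In VHL-KO/AKI against VHL-KO 4 fell, Gas2 by 0.82, Cebpa by 0.48, Gas1 by 0.45 and the cell cycle inhibitor Cdkn1b by 0.38, where 8.91% of all genes fell. In VHL-KO against Control limma called 0 of 11 (2 at an unadjusted p under 0.05), with Cdkn1b at 0.33 (adjusted p = 0.286). Over all genes 0.527% were called in that comparison. Ndrg1, among the 11, is also on the list of HIF target genes.

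**Figure D4:**
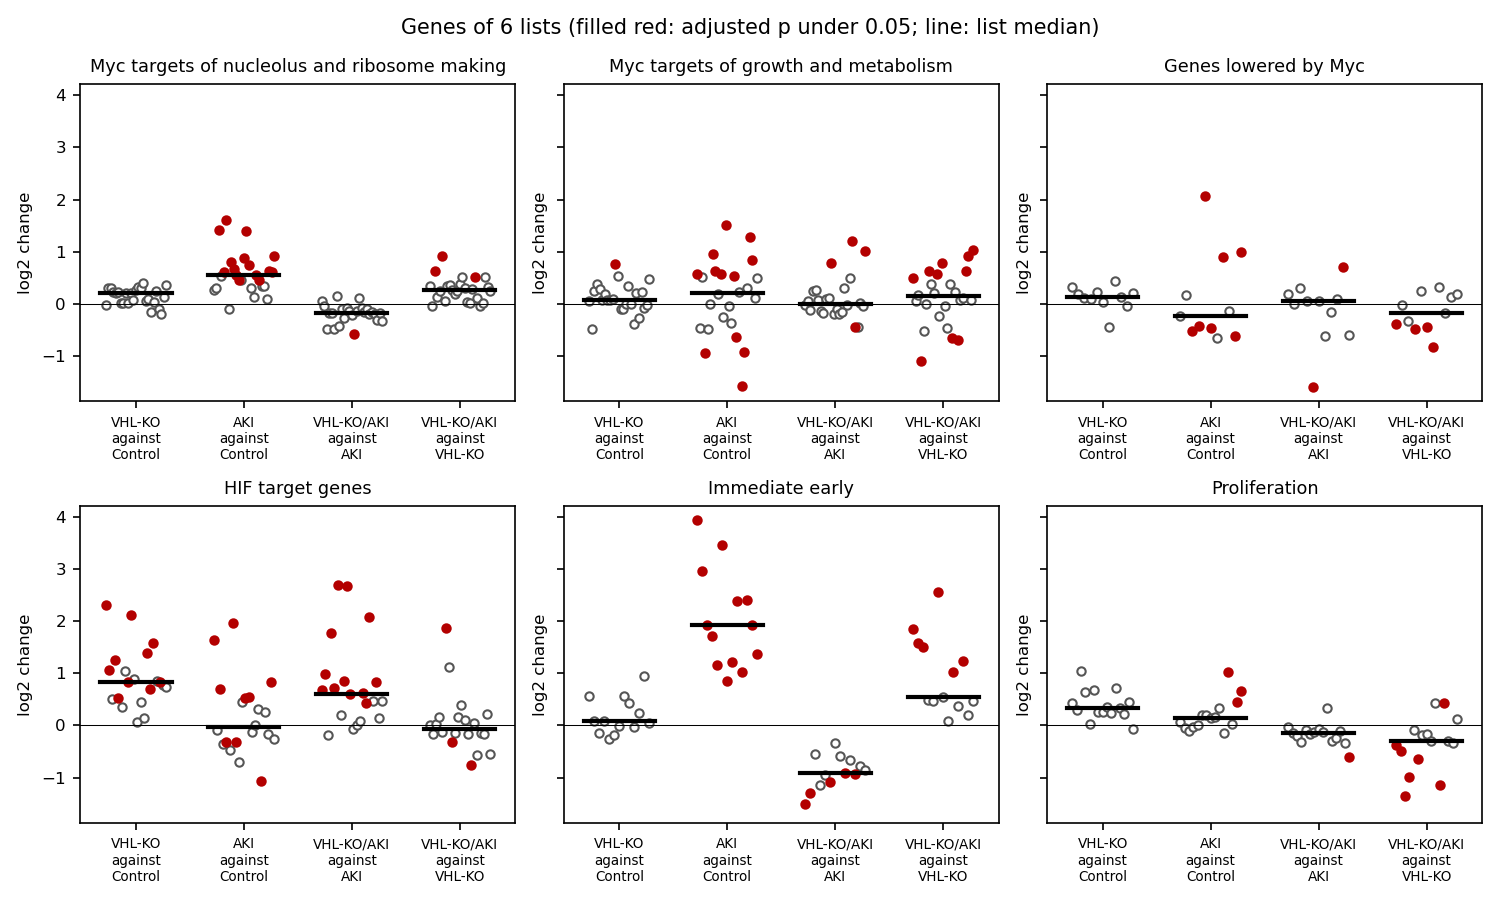
Log2 change of each measured gene (point) of 6 lists in the 4 comparisons, with the list median as a black line; filled red points passed at an adjusted p under 0.05. Genes of nucleolus and ribosome making lie mostly above 0 in AKI against Control (median 0.55), immediate early genes in AKI against Control (1.92), and HIF target genes in both comparisons of the deletion (0.83 and 0.61).

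Genes for proteins that work with the network were called at shares of 1 of 11, 3 of 12 and 3 of 11 in AKI against Control, where 28.1% of all genes were called. Of 11 cofactors of Myc, 1 rose in AKI against Control, Bin1, a Myc-binding adaptor (0.74, adjusted p = 0.0105), and in the other comparisons limma called 0 of 11 (0 at an unadjusted p under 0.05 in each). Of 12 corepressors of Mxd proteins and partners of Mga, 3 rose in AKI against Control, the Polycomb proteins Pcgf6 (0.71), Rybp (0.63) and Rnf2 (0.41). With injury and deletion compared to injury alone (VHL-KO/AKI against AKI), Rybp fell by 0.42 (adjusted p = 0.0496), and in VHL-KO/AKI against VHL-KO the corepressor Sin3b fell by 0.46 and Ring1 by 0.30, where 3.88% and 13.6% of all genes were called in these comparisons. Of 11 genes for the turnover of Myc protein, 3 rose in AKI against Control, the deubiquitinase Usp36 by 0.27, the kinase Gsk3b by 0.25 and the ubiquitin ligase subunit Skp2 by 0.24. Usp28, another deubiquitinase, fell by 0.29 in VHL-KO/AKI against VHL-KO.

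Among 12 other bHLH zipper factors that bind E boxes, Tfe3 rose by 0.69 and Mlxip, the MondoA gene, by 0.48 in AKI against Control, whereas Mitf fell by 0.64 and Srebf2, a regulator of cholesterol synthesis, by 0.40, which made 4 of 12 called, where 28.1% of all genes were. For VHL-KO/AKI against VHL-KO, 3 of 12 were called, where 13.6% of all genes were: Srebf2 fell by 0.62, Mitf fell by 0.50 and Mycl, the third Myc gene, rose by 0.20. In both comparisons of the deletion limma called 0 of 12 (0 at an unadjusted p under 0.05 in uninjured and 3 in injured kidneys). Over all genes 0.527% were called in uninjured and 3.88% in injured kidneys.

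HIF target genes are given beside Myc and Mxi1 because Vhl acts on HIF. Of 20 measured, 10 rose and 0 fell in VHL-KO against Control (median 0.83), Adm by 2.31, Egln3 by 2.11, Pdk1 by 1.57 and P4ha1 by 1.38, where 0.476% of all genes rose, Myc rose and Mxi1 did not pass. In VHL-KO/AKI against AKI 12 rose and 0 fell (median 0.61), Car9 by 2.70, Egln3 by 2.67, Pdk1 by 2.07 and Bnip3 by 1.78, where 2.48% of all genes rose, Mxi1 rose and Myc differed by -0.44 without passing. With injury and deletion compared to deletion alone (VHL-KO/AKI against VHL-KO), 1 of 20 rose, Car9 by 1.87, and 2 fell, P4ha1 (-0.75) and Egln1 (-0.31). The median was -0.06, and over all genes 4.66% rose, 8.91% fell and 13.6% were called in either direction. In AKI against Control 6 rose and 3 fell (median -0.03), where 28.1% of all genes were called. In AKI against Control Ddit4 rose by 1.96, Adm by 1.63 and Slc2a1 by 0.84, and Pdk1 fell by 1.07.

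All 13 immediate early genes measured rose in AKI against Control (median 1.92), where 13.2% of all genes rose, Atf3 by 3.93, Fosl1 by 3.46, Egr1 by 2.96 and Klf6 by 2.40, and 6 rose in VHL-KO/AKI against VHL-KO (median 0.54), where 4.66% of all genes rose, Fosl1 by 2.56, Atf3 by 1.85, Egr1 by 1.58 and Egr2 by 1.51. For VHL-KO/AKI against AKI, 5 fell and 0 rose (median -0.92), where 1.4% of all genes fell, with Atf3 at -1.50, Egr1 at -1.30, Fosl1 at -1.08 and Klf6 at -0.94. In VHL-KO against Control limma called 0 of 13 (3 at an unadjusted p under 0.05), where 0.527% of all genes were called. The median was 0.08, and Jun, whose p was the smallest, differed by 0.43 (adjusted p = 0.534). Larger differences that did not pass, named after their values were seen, were 0.94 for Nr4a1 (adjusted p = 0.585), 0.57 for Atf3 (adjusted p = 0.845) and 0.57 for Ier3 (adjusted p = 0.541). In the interaction limma called 0 of 13 (7 at an unadjusted p under 0.05), with a median of -1.15 and Jun at -1.36 (adjusted p = 0.0791).

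Proliferation genes were measured in the comparisons where Myc rose. Of 15, limma called 0 in VHL-KO against Control (10 at an unadjusted p under 0.05, median 0.34), where 0.527% of all genes were called. In AKI against Control 3 rose, Pcna by 1.02, Top2a by 0.66 and Rrm2 by 0.44, where 13.2% of all genes rose, and the median was 0.15. In VHL-KO/AKI against VHL-KO, where Myc rose, 6 fell and 1, Pcna, rose by 0.43 (median -0.30), where 8.91% of all genes fell and 4.66% rose, with Ccna2 down (-1.36), Mki67 down (-1.15), Ccnb2 down (-0.99) and Cdk1 down (-0.64). The mean level of the list was 6.28 on VHL-KO 1, 5.92 on VHL-KO 2 and 6.02 on VHL-KO 3, against 5.64 to 5.76 in VHL-KO/AKI. VHL-KO 1 also had the highest mean over 7 lymphocyte genes, 5.78, against 4.62 to 5.11 on all other arrays. The part of lymphocytes and of this array in the fall was not tested. For VHL-KO/AKI against AKI, 1 of 15 passed, Top2a, which fell by 0.60, where 3.88% of all genes were called. In the interaction limma called 0 of 15 (12 at an unadjusted p under 0.05, 0 of them higher). The median was -0.47, against -0.02 over all genes, and 14 of 15 values lay below 0. Rrm2, whose p was the smallest, stood at -0.78 (adjusted p = 0.116). Over all genes 2387 of 19938 had an unadjusted p under 0.05 in the interaction. Of 13 tubular injury markers 12 rose in AKI against Control and 10 in VHL-KO/AKI against VHL-KO, and Krt18 (-0.90) and Krt8 (-0.51), epithelial keratins, fell in VHL-KO/AKI against AKI. In AKI against Control Krt20 rose by 6.44, the receptor Havcr1 (KIM-1) by 5.75, the secreted marker Lcn2 by 5.13 and Sprr2f by 4.32, and with injury added to the deletion (VHL-KO/AKI against VHL-KO) Havcr1 rose by 5.99, Krt20 by 5.60, Lcn2 by 4.24 and Sprr2f by 4.01.

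Markers of other cells moved with injury and between the injured groups, and their part in the Myc and Mxd results was not tested. Of 8 neutrophil genes 7 rose in AKI against Control (median 0.95), with a mean level between 4.72 and 5.46 in VHL-KO/AKI, 5.24 and 6.34 in AKI, 4.64 and 4.77 in VHL-KO and 4.60 and 4.71 in Control. Of the tubule markers in AKI against Control, 9 of 10 for the proximal tubule, 6 of 8 for the thick limb and distal tubule and 6 of 8 for the collecting duct fell. Over all genes 13.2% rose and 14.9% fell in that comparison. Of 8 macrophage genes in AKI against Control, Cd14 rose by 2.52 and Cd68 by 1.93, whereas Cd74 fell by 1.72 and Csf1r fell by 1.03. In VHL-KO/AKI against AKI, where Mxi1 rose, all 8 collecting duct values lay above 0 (median 0.46) and 2 rose, the sodium channel subunits Scnn1g by 0.82 and Scnn1b by 0.40, and all 8 neutrophil values lay below 0 (median -0.61) and 2 fell, S100a9 by 1.07 and S100a8 by 0.55. In the same comparison Kcnj1, a thick limb potassium channel, rose by 1.28, and of 8 fibroblast and smooth muscle genes Dcn rose by 0.69 whereas Tagln fell by 0.93 and Acta2 fell by 0.57. Of all genes, 2.48% passed as higher and 1.4% as lower in VHL-KO/AKI against AKI.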

How the data were processed

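The authors deposited 1 table of log2 levels for 35556 probe sets on 16 single-colour arrays, and the submitters' processing notes name Partek 6.4 and RMA (background correction and summary), with settings, order and genome build not given in the sources used here. The values were used without further scaling, the medians of the arrays running between 5.92 and 6.03. The number of arrays limits the precision.

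The platform table gave 1 symbol to 21789 rows, several to 1621 and none to 12146. Rows with 1 symbol were tested, with the row of highest mean for 999 genes that had several. The 4 groups, taken from the titles, were fitted together in limma 3.58.1 (R 4.3.3; 12 residual and 2.83 prior degrees of freedom), with 2-sided tests. Calls needed an adjusted p (Benjamini-Hochberg, over all 19938 genes) under 0.05. The labels call the samples biological replicates. The step was tested on simulated data.

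The members and gene lists were chosen with earlier results of these data known, so list counts are descriptions. The rule for names took all members in every comparison and, per pathway list and comparison, up to 4 called genes of largest change, or else the gene with the smallest p; not every gene it allows is printed. Some listed genes were not analysed here. Alternatives were other scalings, a filter on dim genes, array weights, a robust variance, the compared groups alone, a replicate block, the sex-linked level in the fit, and each array left out in turn.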

Additional observations from a re-analysis of the deposited data

Results flagged for a closer look

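The Myc interaction of -2.02 (limma adjusted p = 0.0466) was singled out because the difference made by the deletion in injured kidneys (-0.44) and that in uninjured kidneys (1.58) differed by a test of the difference itself. Max on the array VHL-KO/AKI 3 lay at 8.70, with the nearest of its group at 9.07, a gap of 0.777 of the group's range. That was 1 of 18 sets of 5 arrays checked, and chance alone singles out about 1 in 20.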

How the results depend on the processing

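Of 1151 values of members under alternative settings 1075 kept their direction and side of the threshold, 27 lost the call, 15 gained it and 34 changed sign. Signs were compared after rounding to 2 decimals, so results reported as 0.00 could not be counted as changing sign. For each loss and sign change below the cause was not tested. Leaving out 1 array at a time, which with 3 arrays a group leaves 2, gave 34 to 235 called genes in VHL-KO against Control, 4248 to 6811 in AKI against Control, 229 to 2384 in VHL-KO/AKI against AKI, 1683 to 3910 in VHL-KO/AKI against VHL-KO and 0 to 620 in the interaction (1877 genes at an unadjusted p under 0.05 without Control 3); each highest count came without AKI 4.

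Array weights gave 319 called genes in VHL-KO against Control, 2868 in VHL-KO/AKI against AKI, 4328 in VHL-KO/AKI against VHL-KO and 885 in the interaction. Centring gave 64 in VHL-KO against Control, and the fit of the compared groups alone 223 in VHL-KO/AKI against AKI. In the interaction limma called 0 genes after centring, quantile or cyclic loess scaling (2367, 2360 and 2342 at an unadjusted p under 0.05). With sex-linked level added to the fit it called 18 in VHL-KO against Control and 0 in AKI against Control, the interaction and VHL-KO/AKI against VHL-KO (712, 1732 and 359 at an unadjusted p under 0.05).

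Equal replicate numbers were not treated as pairs: the deviations of 20 pairs of same-numbered arrays correlated between -0.381 and 0.204, with 3 pairs above 0.1. In groups of 3 or 5 arrays, deviations from a group mean depend on one another. The correlations therefore cannot show whether same-numbered arrays shared a batch. With the replicate number as a block, limma called 65 genes in VHL-KO against Control and 1 in the interaction, and the Myc interaction was -2.02 (adjusted p = 0.0673).

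Members reported as 0.00 come first, since their changes of sign were not counted. With 1 array left out, Mga ranged between -0.09 and 0.08 in VHL-KO/AKI against AKI. In the interaction Mycn ranged between -0.07 and 0.08 and Mxd4 between -0.08 and 0.08. Other values of members changed sign as follows, none of them called in either setting. After centring Mycn was 0.04 in VHL-KO/AKI against VHL-KO. In AKI against Control Mga was -0.01 after quantile and -0.03 after cyclic loess scaling, and Mxd3 was 0.01 in VHL-KO/AKI against AKI after both. With array weights Mnt was 0.01 in VHL-KO against Control and Mxd1 0.02 in VHL-KO/AKI against AKI. With the sex-linked covariate Mxd1 was -0.06 in VHL-KO against Control; Mycn was 0.15, Mxi1 0.05, Mxd1 0.75, Mxd4 0.27 and Mga -0.35 in AKI against Control; and Mycn was 0.18, Mxi1 0.14, Mxd1 0.63, Mxd3 0.28 and Mxd4 0.36 in VHL-KO/AKI against VHL-KO. With 1 array left out, members that changed sign ranged as follows: in VHL-KO against Control Mycn between -0.12 and 0.03, Max between -0.01 and 0.30 and Mnt between -0.10 and 0.09; in AKI against Control Mycn between -0.05 and 0.01 and Mga between -0.07 and 0.10; in VHL-KO/AKI against VHL-KO Mycn between -0.09 and 0.06 and Max between -0.09 and 0.03; and in the interaction Mxi1 between -0.07 and 0.14.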
